A study of Arabidopsis thaliana with 12 samples.

Results

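Leaf transcripts of the *ADR1-L2 DV sadr1-30.4* suppressor were compared with those of wild-type Col-0, to describe what still differed from wild type once autoimmunity had been suppressed. The comparison rests on 6 of the 12 samples of the series, 3 of each genotype, chosen by their genotype labels. Both genotypes are *Arabidopsis thaliana* leaves. Col-0 is the wild type and carries no transgene. *ADR1-L2 DV sadr1-30.4*, called sadr1-30.4 below, carries 3 changes: the *adr1-l2-4* mutation, a transgene for ADR1-L2 D484V under its native promoter, and the *sadr1-30.4* missense allele of *SADR1* (AT4G36150). Effects of the transgene, of the *adr1-l2-4* background, of the *sadr1* allele and of any other mutation that the suppressor screen left in the line cannot be told apart in this comparison. The parental line *ADR1-L2 DV* and a second suppressor, *ADR1-L2 DV sadr1-26.6* (sadr1-26.6), share the transgene and the background, and their values are given only as context. A sample was made of leaves pooled from at least 2 plants, and each of the 3 samples was taken from a separate experiment.

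ADR1-L2 belongs to the RNLs, the helper class of NLR immune receptors. RNLs act downstream of the lipase-like proteins EDS1, PAD4 and SAG101, which receive small molecules made by the TIR domains of activated receptors such as TNLs. The D484V change in the MHD motif makes ADR1-L2 an activation mimic, so that defence is switched on without a pathogen. SADR1 is a TNL required for that autoimmunity. Defence downstream of this node runs largely through salicylic acid, made by way of ICS1, and through N-hydroxypipecolic acid, made by ALD1 and FMO1. PR1, PR2 and PR5 are the classical markers of the salicylic acid response. In leaves, jasmonate responses and the salicylic acid response often oppose each other.

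The deposited table holds 1 pooled read count per gene and genotype, so no value below has an SD, and no difference between genotypes could be tested. A log2 ratio is the log2 of scaled pooled reads in sadr1-30.4 over those in Col-0, and a gene is called higher or lower where it is past 2-fold and has at least 50 pooled reads in either genotype. A gene under 50 reads in 1 genotype is thus kept only through the other, where its reads are higher. Brackets give exact Clopper-Pearson 95% intervals on the log2 ratio, which reflect counting error and not the spread between plants. Pooled reads totalled 20148132 in Col-0 and 20613029 in sadr1-30.4, and the size factors were 0.959 and 0.964, so raw reads of both genotypes can be read against each other directly. For *ADR1-L2 DV* and sadr1-26.6 the factors were 1.17 and 0.923, and their raw reads are to be divided by these when set against Col-0. Markers were those of leaf tissue in both genotypes. The 5 mesophyll markers had a median log2 ratio of 0.13, while the 9 matched root markers summed to 12.5 scaled reads in Col-0 and 13.5 in sadr1-30.4, and the 9 of flower, pollen and seed to 20.9 and 25.9. Among the root markers, 8 were at 0 in Col-0.

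Of 15448 genes above the read floor, 86 were at least 2-fold higher in sadr1-30.4 (0.557%) and 186 were at least 2-fold lower (1.2%). Counts of called genes in the lists below are to be read against these shares. The median log2 ratio over all these genes was 0.01, and 94.4% lay within 1.5-fold of Col-0. Genes past 4-fold numbered 11 above and 32 below Col-0. In *ADR1-L2 DV*, by the same rule over 15975 genes, 1103 genes were higher and 978 lower than in Col-0. In sadr1-26.6, over 15427 genes, 171 were higher and 173 lower. All these comparisons use the same Col-0 value. The shares past 2-fold were largest among weakly read genes. At 50 to 100 reads, 38 of 1725 genes were higher and 55 lower, against 6 and 19 of 3175 genes at 1000 to 5000 reads. Above 5000 reads, 13 of 519 genes were lower and 2 were higher.

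**Figure D1:**
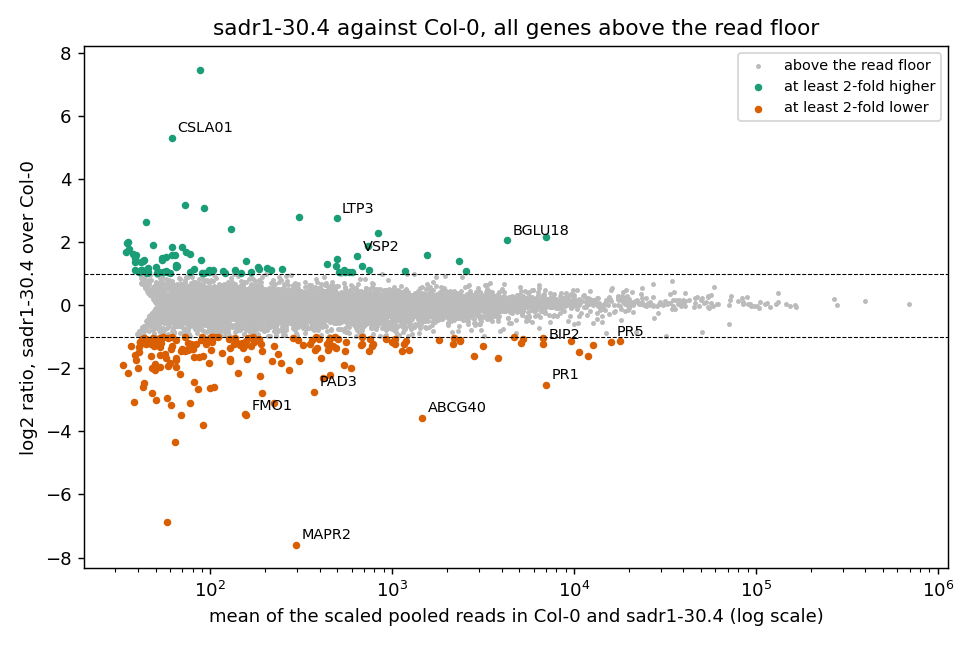
Log2 ratio of scaled pooled reads in sadr1-30.4 over Col-0 (vertical axis) against the mean of the scaled reads of both genotypes (log scale), 1 point per gene above the read floor. The 86 genes at least 2-fold higher are green and the 186 at least 2-fold lower are orange, with dashed lines at 2-fold, and *PR1*, *ABCG40* and *BGLU18* lie past them among well-read genes.

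The 186 lower genes were spread on both sides of Col-0 in the parent, where their quartiles ran from -0.33 to 0.99. Their median log2 ratio to Col-0 was 0.28 in the *ADR1-L2 DV* parent, -0.82 in sadr1-26.6 and -1.30 in sadr1-30.4. For the 86 higher genes the medians were 0.66, 0.71 and 1.23. Both sets were picked by the sadr1-30.4 ratio, so its medians lie past 2-fold by selection. All these ratios also share the Col-0 value, so the order of the medians tests nothing. By chromosome, from 1 to 5, lower genes made up 1.54%, 0.99%, 1.46%, 1.14% and 0.78%, against 1.2% over all genes. Higher genes made up 0.54%, 0.60%, 0.52%, 0.55% and 0.58%, against 0.557%. Differences between chromosomes were not tested.

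Promoter windows of 7 genes are shown because they carry the letters of well-known defence and jasmonate-linked elements upstream of genes that stood below or above Col-0. Each is the 250 bases before the annotated gene start in the RefSeq TAIR10.1 genome, read 5′ to 3′ on the strand of the gene. Capitals mark the W-box (TTGACC or TTGACT, the core bound by WRKY factors), the G-box (CACGTG, bound by bHLH and bZIP factors) and TGACG (bound by TGA factors), on either strand. These genes were chosen after the letters and the values were seen. The first 4 genes were lower in sadr1-30.4 and the last 3 were higher.
GSTU4 (chr2:12627892-12628141, minus strand): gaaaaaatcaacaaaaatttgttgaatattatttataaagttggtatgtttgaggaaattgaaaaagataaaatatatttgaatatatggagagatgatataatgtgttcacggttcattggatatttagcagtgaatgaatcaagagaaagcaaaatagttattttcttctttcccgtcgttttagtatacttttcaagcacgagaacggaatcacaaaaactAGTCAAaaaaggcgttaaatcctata
AT3G13610 (chr3:4449009-4449258, plus strand): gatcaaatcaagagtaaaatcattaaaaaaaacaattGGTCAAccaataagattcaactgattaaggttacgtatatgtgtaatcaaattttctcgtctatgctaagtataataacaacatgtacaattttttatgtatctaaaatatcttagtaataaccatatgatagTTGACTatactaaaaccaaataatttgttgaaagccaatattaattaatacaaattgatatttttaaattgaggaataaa
CRK37 (chr4:2238120-2238369, plus strand): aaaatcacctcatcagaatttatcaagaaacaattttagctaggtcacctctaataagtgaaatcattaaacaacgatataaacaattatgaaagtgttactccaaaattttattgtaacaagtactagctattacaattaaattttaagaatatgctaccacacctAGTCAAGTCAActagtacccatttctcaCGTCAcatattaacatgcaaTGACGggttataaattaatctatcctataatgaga
PR5 (chr1:28177420-28177669, plus strand): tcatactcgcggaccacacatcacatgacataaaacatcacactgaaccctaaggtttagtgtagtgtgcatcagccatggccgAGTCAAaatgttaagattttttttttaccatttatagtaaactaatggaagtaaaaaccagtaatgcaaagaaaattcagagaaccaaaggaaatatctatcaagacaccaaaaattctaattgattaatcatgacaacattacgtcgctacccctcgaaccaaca
MBP1 (chr1:19352792-19353041, minus strand): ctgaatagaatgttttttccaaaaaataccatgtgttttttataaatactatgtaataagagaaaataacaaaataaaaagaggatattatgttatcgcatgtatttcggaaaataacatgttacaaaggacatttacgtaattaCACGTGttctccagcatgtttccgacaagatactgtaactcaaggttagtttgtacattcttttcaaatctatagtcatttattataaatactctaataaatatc
VSP2 (chr5:8502225-8502474, minus strand): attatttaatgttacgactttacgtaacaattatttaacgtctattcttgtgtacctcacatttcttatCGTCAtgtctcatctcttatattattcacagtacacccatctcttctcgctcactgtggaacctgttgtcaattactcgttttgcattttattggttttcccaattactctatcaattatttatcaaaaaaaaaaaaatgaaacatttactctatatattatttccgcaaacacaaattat
AT3G28220 (chr3:10523931-10524180, plus strand): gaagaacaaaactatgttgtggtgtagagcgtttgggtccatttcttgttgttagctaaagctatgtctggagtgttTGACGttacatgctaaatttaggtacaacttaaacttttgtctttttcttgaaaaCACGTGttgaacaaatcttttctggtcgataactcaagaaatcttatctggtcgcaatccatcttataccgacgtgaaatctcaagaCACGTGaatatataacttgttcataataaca

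Over windows of this length, a W-box was present in 40.3% of the 186 lower genes, 30.6% of the 85 higher genes with a window, and 28.0% of all 15390 genes above the floor with one. TGACG was present in 28.0% of lower genes, 20% of higher genes and 19.5% of all genes. The G-box was present in 6.45%, 9.41% and 7.56%. No match of one motif could count in full as a match of another. These shares describe letters in a window and were not tested.

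The RNL and EDS1 node stood close to Col-0. None of the 11 genes of the list was past 2-fold, and their median log2 ratio was -0.17, where *ADR1-L2 DV* had 0.97. Since 0.557% of all genes were higher and 1.2% lower, an NLR list of this size would often hold no call. *ADR1-L2* itself had 1148 pooled reads in Col-0, 8543 in the *ADR1-L2 DV* parent, 3254 in sadr1-26.6 and 1855 in sadr1-30.4, which put it 1.61-fold above Col-0 (log2 ratio 0.68, 0.58 to 0.79). The reads of the transgene and of the mutated endogenous gene cannot be told apart. *EDS1* had 1679 reads in Col-0, 6265 in the *ADR1-L2 DV* parent and 1501 in sadr1-30.4, and its log2 ratio was -0.17 (-0.27 to -0.07). *PAD4* had 2278, 8006 and 1866 reads, with a log2 ratio of -0.30, and *SAG101* had 585, 1403 and 428, with -0.46. The other helper NLR genes lay nearer to Col-0, at -0.05 for *ADR1*, -0.13 for *ADR1-L1*, -0.17 for *NRG1.1* and -0.12 for *NRG1.2*. *SADR1* had 383 reads in Col-0 and 339 in sadr1-30.4, and since its allele is a missense change, this level does not check the label. Its head-to-head neighbour *SADR1-P1* had 632 and 628. None of 19 other *TNL* and *TIR* genes above the floor, and none of 10 coiled-coil NLR genes, was past 2-fold, with medians of -0.12 and -0.16. Outside the list, *AT1G57630*, a TIR domain gene noticed after values were seen, had 416 reads in Col-0 and 101 in sadr1-30.4 (log2 ratio -2.04).

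Salicylic acid and pipecolate genes stood below Col-0 in sadr1-30.4. Of 27 listed genes above the floor, 8 were lower and 1 was higher, with a median log2 ratio of -0.33 against 0.01 over all genes. Of all genes above the floor, 1.2% were lower and 0.557% higher. Of the listed genes for making salicylic acid, *ICS1*, *EDS5* and *PBS3* were among the 8, and *EPS1* was not. *ICS1*, the isochorismate synthase, had 2380 reads in Col-0 and 1103 in sadr1-30.4 (log2 ratio -1.12). *EDS5*, which exports isochorismate from the chloroplast, had 1062 and 431 (-1.31). *PBS3*, which conjugates isochorismate to glutamate, had 1565 and 665 (-1.24). In the *ADR1-L2 DV* parent, *ICS1*, *EDS5* and *PBS3* had 4377, 1423 and 3821 raw reads. After scaling, their log2 ratios to Col-0 there were 0.59, 0.13 and 0.997, so *EDS5* lay close to Col-0.

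*FMO1* and *ALD1*, of the N-hydroxypipecolic acid pathway, stood further below Col-0 than *ICS1*, *EDS5* and *PBS3*. *FMO1*, the enzyme that hydroxylates pipecolic acid, had 277 reads in Col-0, 533 in the *ADR1-L2 DV* parent, 51 in sadr1-26.6 and 24 in sadr1-30.4, 11.2-fold below Col-0 (log2 ratio -3.49, -4.20 to -2.93). *ALD1*, the aminotransferase that starts pipecolate synthesis, had 670, 505, 541 and 135 reads in the same order, 4.96-fold lower in sadr1-30.4. *SARD4*, the reductase of the next step, had 1174 reads in Col-0 and 601 in sadr1-30.4, just short of 2-fold (log2 ratio -0.97). *UGT76B1*, which glucosylates salicylic acid and N-hydroxypipecolic acid, had 385, 87, 136 and 44 reads and was the lowest relative to Col-0 after *FMO1* in the list (log2 ratio -3.11). It was below Col-0 in all the transgenic genotypes, *ADR1-L2 DV* included.

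Regulators of the same list differed among themselves. *CBP60G* had 1745 reads in Col-0 and 942 in sadr1-30.4 (log2 ratio -0.90), whereas its relative *SARD1* had 1305 and 1116 (-0.23). *NPR1*, the salicylic acid receptor, had 1276 and 1139. *WRKY40* had 324 and 94 reads (log2 ratio -1.78) and *WRKY46* had 912 and 383 (-1.26). *WRKY70*, at 4501 and 4209 reads, lay at -0.10. Of the 27 listed genes, 5 lay above 0, and *WRKY38* was the only one past 2-fold. It had 130 reads in Col-0, 1575 in the *ADR1-L2 DV* parent, 587 in sadr1-26.6 and 284 in sadr1-30.4 (log2 ratio 1.11). Over all 34 *WRKY* genes above the floor, a family added after values were seen, 4 were lower and 1 was higher, with a median of -0.08. The shares over all genes were 1.2% lower and 0.557% higher.

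Salicylic acid output genes gave 3 lower and 3 higher of 16, and a median of -0.52. Among all genes, 1.2% were lower and 0.557% higher. *PR1* had 11475 reads in Col-0, 24106 in the *ADR1-L2 DV* parent, 5947 in sadr1-26.6 and 2005 in sadr1-30.4, 5.75-fold below wild type (log2 ratio -2.52, -2.59 to -2.46). *PR5*, a thaumatin-like protein, had 21151, 24775, 8044 and 9543 (log2 ratio -1.16 in sadr1-30.4). *PR2*, a beta-1,3-glucanase, had 16148, 43906, 7621 and 11159 and was not past 2-fold (log2 ratio -0.54). *PR1* was thus lower in sadr1-30.4 than in sadr1-26.6, while *PR2* and *PR5* had more reads in sadr1-30.4. *SAG13* had 819 reads in Col-0 and 219 in sadr1-30.4 (log2 ratio -1.91). The 3 higher members were *AZI1* (29 and 106 reads), *EARLI1* (37 and 90) and *MLO12* (38 and 78), all weakly read. *MLO12*, at a log2 ratio of 1.01, fell under 2-fold with scaling by total reads (0.99) or a pseudocount of 5 (0.94), which left 2 higher genes in this list. *AZI1* and *EARLI1* encode related proline-rich proteins of the lipid transfer type, and *MLO12* a membrane protein of the MLO family.

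**Figure D2:**
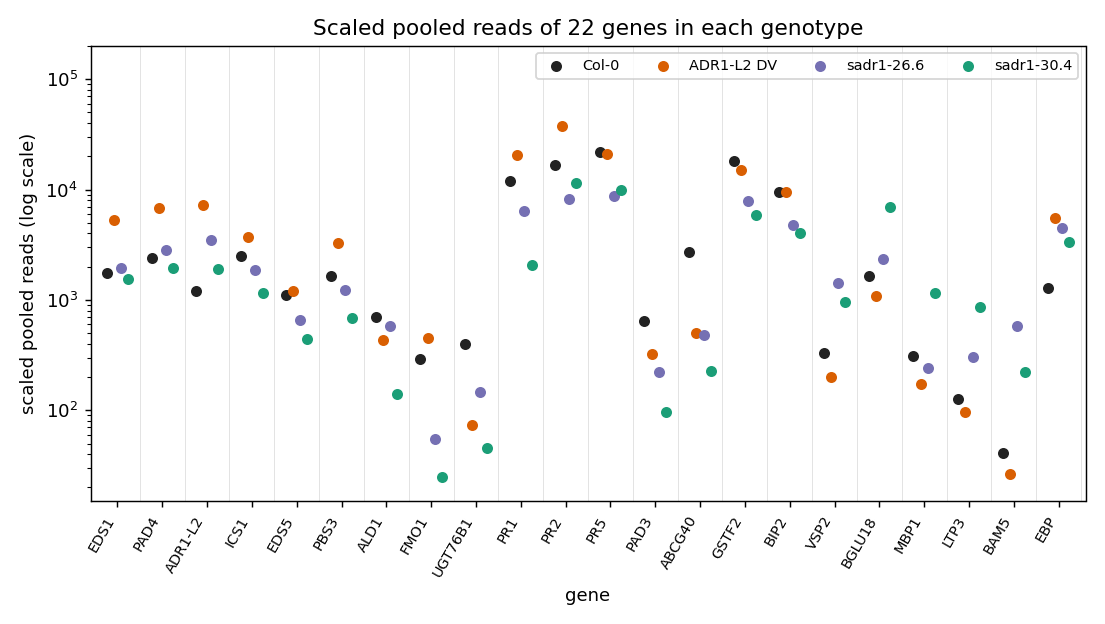
Scaled pooled reads (log scale) of 22 genes in Col-0, *ADR1-L2 DV*, sadr1-26.6 and sadr1-30.4, 1 point per genotype with no error bar because each is a single pooled value. *EDS1* and *PAD4* lie near Col-0 in sadr1-30.4, *FMO1*, *UGT76B1* and *PR1* lie below it, and *BGLU18*, *MBP1* and *LTP3* lie above it.

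Phytoalexin genes were also below wild type. Of 15 indole glucosinolate and camalexin genes above the floor, 3 were lower and none was higher, with a median of -0.24, and all 3 are camalexin genes. The share of lower genes over all genes was 1.2%. *PAD3*, the P450 of the last step of camalexin synthesis, had 622 reads in Col-0, 379 in the *ADR1-L2 DV* parent, 207 in sadr1-26.6 and 93 in sadr1-30.4 (log2 ratio -2.74, -3.08 to -2.43). *CYP71A13*, which acts earlier, had 209 reads in Col-0 and 81 in sadr1-30.4 (-1.37). *GSTF6*, which supplies the glutathione conjugate, had 5596 and 1761 (-1.68). No gene of indole glucosinolates in the list was past 2-fold, with *CYP83B1* at 0.18 and *PEN2*, an atypical myrosinase, at 0.02. These 2 are from the upper side of the list, where 9 of 15 genes lay below 0 and the highest was at 0.19. *AT3G13610*, a 2-oxoglutarate-dependent oxygenase whose window holds W-box letters on both strands, had 324 and 46 reads (log2 ratio -2.80).

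Phi and tau glutathione transferases, a family added after values were seen, held 6 lower and no higher genes of 20. All genes together gave 1.2% lower. *GSTF2* had 17335 reads in Col-0 and 5663 in sadr1-30.4 (log2 ratio -1.62) and *GSTF7* had 4100 and 1335 (-1.63). *GSTF2*, *GSTF6* and *GSTF7* are similar in sequence, so reads may be shared between them. *GSTU4* differed most, with 272 reads in Col-0 and 24 in sadr1-30.4 (log2 ratio -3.46, -4.18 to -2.91). Others of the family did not follow, and *GSTF9*, at 18778 and 19954 reads, lay at 0.08.

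The list of heat shock and folding genes held 5 lower and no higher genes of 17, against 1.2% lower over all genes. Its median was -0.47. It mixes compartments, and 5 of its members lay above 0, and the log2 ratio of its summed level was -0.12. Among the 5 lower genes were *BIP1*, *BIP2* and *BIP3*, the Hsp70 chaperones of the endoplasmic reticulum. *BIP1* had 12656 reads in Col-0 and 5838 in sadr1-30.4 (log2 ratio -1.12), *BIP2* had 9089 and 3857 (-1.24) and *BIP3* had 1045 and 386 (-1.44). *BIP1* and *BIP2* are near-identical in their coding sequence, and their reads may be shared. The lectin chaperone *CNX1* had 8741 and 4286 reads (-1.04). The other lower member, *HSP90.1*, is cytosolic and had 1053 and 450 reads (-1.23), whereas the cytosolic *HSC70-1* had 47665 and 57669 (0.27).

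Protein disulfide isomerases, added after values were seen, were split within the family. Of 12 genes, 4 were lower, against 1.2% over all genes, and none was higher. *PDIL1-1* had 6869 reads in Col-0 and 3252 in sadr1-30.4, *PDIL1-2* had 4322 and 1781, *PDIL1-3* had 1584 and 719, and *PDIL2-2* had 643 and 263. The remaining 8 lay between *PDIL2-3* at -0.63 and *PDIL5-1* at 0.15. In sadr1-26.6 the reads of the 4 lower genes were 3186, 2047, 958 and 309, and in *ADR1-L2 DV* they were 6977, 4919, 1969 and 813. These 4 isomerase genes were thus near the Col-0 level in *ADR1-L2 DV* and below it in both suppressors.

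Receptor-like kinases of the cysteine-rich class held 3 lower genes of 27 and a median of -0.24. Of all genes, 1.2% were lower and 0.557% higher, and a single call in a list cannot be told from these shares. *CRK39* had 224 reads in Col-0 and 50 in sadr1-30.4 (log2 ratio -2.15), *CRK13* had 592 and 184 (-1.69) and *CRK37* had 588 and 253 (-1.22). In the list of pattern receptor signalling, 1 of 22 genes was lower, namely *NHL10* with 119 and 38 reads. Calcium genes held 2 lower and 1 higher of 29. *CML37*, a calmodulin-like protein, had 191 and 56 reads (-1.76), and *CAX3*, a vacuolar calcium exchanger, had 743 reads in Col-0, 7357 in the *ADR1-L2 DV* parent and 333 in sadr1-30.4 (-1.16). *CML41*, another calmodulin-like protein, was higher, with 72, 2191 and 155 reads (1.09).

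The genes furthest below Col-0 included several outside these groups. *ABCG40*, a transporter known to import abscisic acid, had 2590 reads in Col-0, 591 in the *ADR1-L2 DV* parent, 445 in sadr1-26.6 and 219 in sadr1-30.4, 11.8-fold lower (log2 ratio -3.57, -3.78 to -3.37). *MAPR2*, a membrane-associated progesterone-binding protein, had 565, 178, 366 and 2 reads, a log2 ratio of -7.59 (-11.20 to -6.29). Only in sadr1-30.4 was *MAPR2* this near to 0. *XTH10*, a xyloglucan endotransglucosylase, had 164 reads in Col-0 and 11 in sadr1-30.4, and *AT2G44240*, a DUF239 protein, had 118 and 5, although *ADR1-L2 DV* had 1810. *ARI12*, a RING-type ubiquitin ligase of the Ariadne class, had 122 and 10 reads. *DMP1*, a small membrane protein, had 106 and 11. *AT1G68620*, of the alpha/beta hydrolase superfamily, had 134 and 15. *ATGLR1.2*, a glutamate receptor-like channel, had 142 and 22, and *BAP2*, an inhibitor of cell death, had 165 and 26.

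Remaining lower members of the lists were mostly linked to senescence and stress. *SAG14* had 1331 reads in Col-0 and 592 in sadr1-30.4 (log2 ratio -1.18), and *SEN1* had 165 and 79 (-1.06). *BCAT2*, which degrades branched-chain amino acids, had 55 and 24, and *HAI1*, a phosphatase of abscisic acid signalling, had 70 and 31. These 4 genes were above Col-0 in the *ADR1-L2 DV* parent, at 5007, 1045, 338 and 455 reads. *GA2OX2*, which inactivates gibberellins, had 90 and 23 reads, and *EXPA16*, an expansin, 129 and 64.

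Some jasmonate-linked genes stood past 2-fold above Col-0, although most of their pathway did not reach that threshold. In the list of jasmonate and ethylene output, 3 of 10 genes above the floor were higher and 1 was lower. All genes above the floor gave 0.557% higher and 1.2% lower. *VSP1* and *VSP2*, vegetative storage proteins, had 13 and 314 reads in Col-0 and 127 and 925 in sadr1-30.4, with log2 ratios of 3.19 (2.45 to 4.23) and 1.55 (1.36 to 1.74). In *ADR1-L2 DV* they had 51 and 234 reads, and in sadr1-26.6 146 and 1318. *JAL23*, a jacalin-related lectin, had 93 reads in Col-0 and 191 in sadr1-30.4. The lower member was *HEL* (PR4), with 620 and 310 reads. Both *JAL23* and *HEL* lay at the threshold and fell under it in some alternatives, which left 2 higher genes and none lower with a pseudocount of 5. Of 22 synthesis and signalling genes, 16 lay above 0 and 6 below, with a median log2 ratio of 0.11, and their summed level was higher by 0.51 on the log2 scale. Only *AOC1*, an allene oxide cyclase, was past 2-fold, with 726 and 1545 reads (log2 ratio 1.08). *AOC1* is one of 4 similar genes, and the others lay between 0.11 and 0.31. *LOX2*, the chloroplast lipoxygenase, had 24758 and 42188 reads (0.76), and *MYC2*, the central transcription factor, lay at 0.20. *ST2A*, a sulfotransferase acting on hydroxyjasmonate, had 18 reads in Col-0, 70 in the *ADR1-L2 DV* parent, 69 in sadr1-26.6 and 159 in sadr1-30.4, 8.39-fold above Col-0.

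Genes of the ER body, a Brassicales compartment filled with beta-glucosidase, and of its associated lectins stood above Col-0. This list was added after values were seen. Of 9 members above the floor, 7 were higher and none was lower, with a median log2 ratio of 1.05, and 5 were higher with a pseudocount of 5. The share of higher genes over all genes was 0.557%. Because the list followed the values, its counts describe these genes and test nothing. The list of myrosinases and associated proteins, set before it, gave a weaker picture. It held 3 higher and 0 lower genes of 10 above the floor, with a median of 0.38. Its 3 higher genes were *BGLU18*, *MBP1* and *MBP2*. *BGLU18*, a beta-glucosidase that can release abscisic acid from its glucose ester, had 1594 reads in Col-0, 1272 in the *ADR1-L2 DV* parent, 2154 in sadr1-26.6 and 6679 in sadr1-30.4, 4.16-fold above Col-0 (log2 ratio 2.06, 1.98 to 2.14). *TSA1*, its neighbour on the chromosome, had 453, 282, 511 and 980 reads. *MBP1*, a myrosinase-binding protein with a G-box in its window, had 300, 203, 221 and 1111 reads (1.88). *MBP2* had 13, 26, 24 and 54, and the lectin *JAL35* had 377, 336, 981 and 788. *BGLU18*, *TSA1* and *MBP1* thus had more reads in sadr1-30.4 than in sadr1-26.6, while *JAL35* did not. *TGG1* and *TGG2*, the classical myrosinases, lay at 0.14 and 0.55, and *MEB1*, an ER body membrane protein, at 0.57.

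*MBP1* and *MBP2* also formed a run of neighbours with *AT1G52000*, a mannose-binding lectin with 742 reads in Col-0 and 2238 in sadr1-30.4 (log2 ratio 1.58). This was the only run of at least 3 neighbouring genes above the floor that were all higher. The only lower run was *LUP5*, *SVL2* and *SNC4* on chromosome 1. *LUP5*, a triterpene synthase, had 535 and 208 reads, *SVL2*, an SHV3-like protein, had 15048 and 5409 (log2 ratio -1.48), and *SNC4*, a receptor-like kinase active in defence, had 3112 and 1447 (-1.11). *SVL2* and *SNC4* are related in sequence, and shared reads cannot be told apart.

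Few cuticle and growth genes passed 2-fold. Of 25 cuticle and wax genes, 2 were higher, against 0.557% over all genes, and none was lower. Their median was 0.40. *CER4*, a fatty acyl reductase, had 27 reads in Col-0 and 78 in sadr1-30.4, and passed the floor only through sadr1-30.4. *KCS2*, an elongase of very-long-chain fatty acids, had 82 and 221 (log2 ratio 1.41), and *CER3* and *WSD1*, which act in alkane and wax ester synthesis, lay just short of the threshold at 0.97 and 0.98. *KCS12*, in a family added after values were seen, had 110 and 245 reads. In the auxin list, 1 of 24 genes was higher, *SAUR20*, with 61 and 128 reads. That single call cannot be told from the share over all genes. *GASA14*, a gibberellin-regulated gene (AT5G14920), had 254 and 701 reads (1.45), and *BAS1*, which inactivates brassinosteroids, had 20 and 54.

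The largest increases without a shared group were spread over different functions. *LTP3*, a lipid transfer protein, had 122 reads in Col-0, 113 in the *ADR1-L2 DV* parent, 281 in sadr1-26.6 and 831 in sadr1-30.4 (log2 ratio 2.75, 2.48 to 3.05). *BAM5*, a beta-amylase, had 39, 31, 532 and 213 reads (2.41). *AT3G28220*, a TRAF-like protein with the G-boxes shown above, had 274, 529, 539 and 1343 (2.28). *EBP*, an ethylene response factor, had 1231, 6492, 4134 and 3236 (log2 ratio 1.39), and was named after its values were seen. *CSLA01*, a glycan synthase of the CSLA family, had 2, 1, 5 and 117 reads (5.31, 3.98 to 8.92), so that like *MAPR2* it stood apart in sadr1-30.4 from both other transgenic genotypes. *ATCSLA15*, of the same family, had 36 reads in Col-0 and 113 in sadr1-30.4. *AT5G15948*, which the RefSeq table used here does not annotate, had 33 and 108. *PP2-B1* was the phloem marker past 2-fold, with 282 and 665 reads, while the other 11 phloem markers lay below 0 and the 12 together summed to 23004 scaled reads in Col-0 and 20674 in sadr1-30.4. Of 7 xylem markers above the floor, 6 lay below 0, with a median of -0.37, and all 11 matched summed to 1422 and 1131 scaled reads. In pooled leaves, fewer cells of a type and less RNA per cell cannot be told apart, and the part of cell composition in these results was not tested.

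Many listed processes kept to within 2-fold of Col-0. No gene was past that threshold among 39 antenna, photosystem and Calvin cycle genes (median 0.03), 27 clock genes (0.14), 24 cold and drought genes (0.01), 21 aliphatic glucosinolate genes (0.29) and 14 reference genes (0.03). With 0.557% of all genes higher and 1.2% lower, lists of this size would often hold no call in any case. In *ADR1-L2 DV* the medians of these lists were -0.73 for photosynthesis, 0.03 for the clock, -1.20 for cold and drought, -1.68 for aliphatic glucosinolates and -0.06 for reference genes. All 21 aliphatic glucosinolate genes lay above 0 in sadr1-30.4, from 0.01 to 0.67. The 7 cell cycle genes above the floor all lay below 0, with a median of -0.44.

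**Figure D3:**
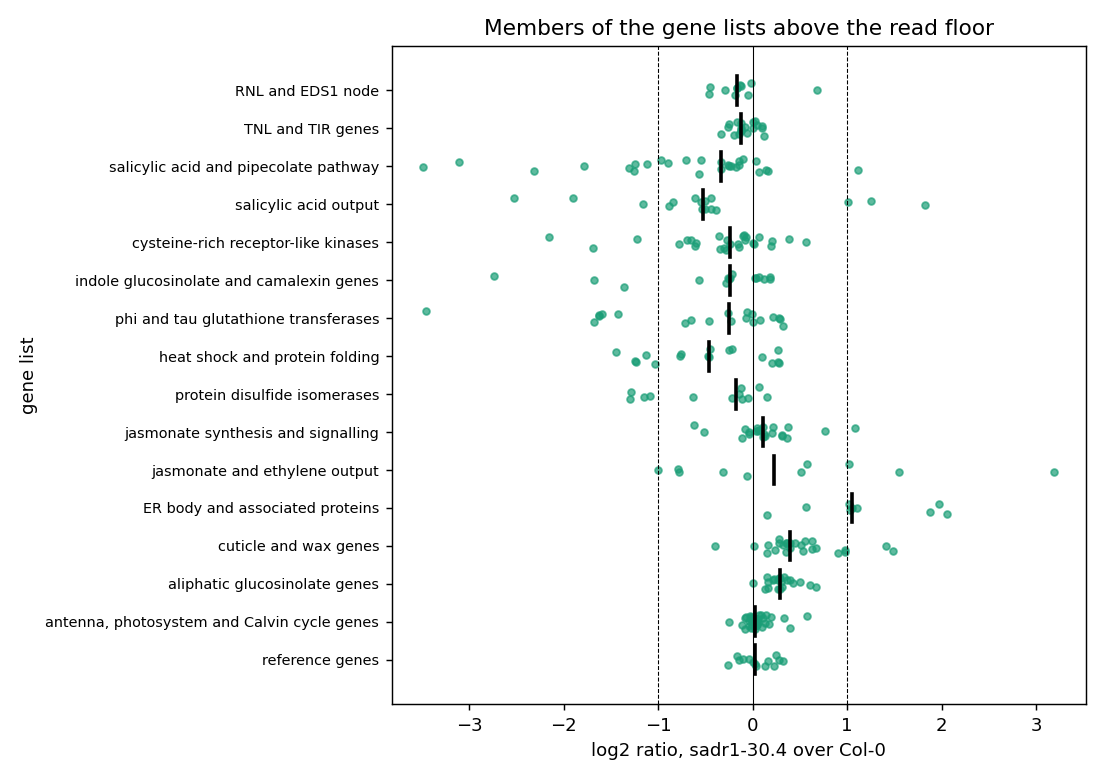
Log2 ratio of scaled pooled reads in sadr1-30.4 over Col-0 (horizontal axis) for each member above the read floor of 16 gene lists, with the median of each list as a black bar and dashed lines at 2-fold. Salicylic acid and pipecolate genes reach down to -3.49 and ER body genes have a median of 1.05, while reference genes and photosynthesis genes gather at 0.03.

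A stretch of 9 neighbouring genes above the floor on chromosome 2, from *BPS2* to *AT2G46200*, stood above Col-0 in sadr1-30.4 as a block. It was noticed after the values were seen. It spans chr2:18948116-18979061 in TAIR10.1, or 30.9 kb. Summed over the block, reads were 4231 in Col-0 and 8299 in sadr1-30.4, a 1.95-fold ratio. The same sum was 1.97-fold above Col-0 in the *ADR1-L2 DV* parent and 2.00-fold in sadr1-26.6. In sadr1-30.4, 8 of the 9 genes were past 1.5-fold, and the ratios ran from 0.57 for *BPS2* to 2.78 for *AT2G46200*. *AT2G46200*, a U11/U12 small nuclear ribonucleoprotein, had 74 reads in Col-0, 792 in the *ADR1-L2 DV* parent, 460 in sadr1-26.6 and 516 in sadr1-30.4. *LCBK2*, a sphingoid base kinase, had 330, 612, 563 and 718. *GC4*, a golgin candidate, had 344, 770, 645 and 712. Of the 16 genes flanking the block, none was past 1.5-fold in sadr1-30.4, and *MPK12* and *AT2G46220* on either side lay at -0.03 and -0.17. By summed reads, the block stood at a similar level in the parent and in both suppressors. Single genes differed. *KPHMT1* lay at 0.004 in the parent, 0.93 in sadr1-26.6 and 1.19 in sadr1-30.4. *BPS2* lay at 1.18, 0.67 and 0.57 in the same order. The cause of these levels was not tested. Effects of the transgene and of the background that these genotypes share cannot be told apart here, and all the ratios rest on the same Col-0 value.

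**Figure D4:**
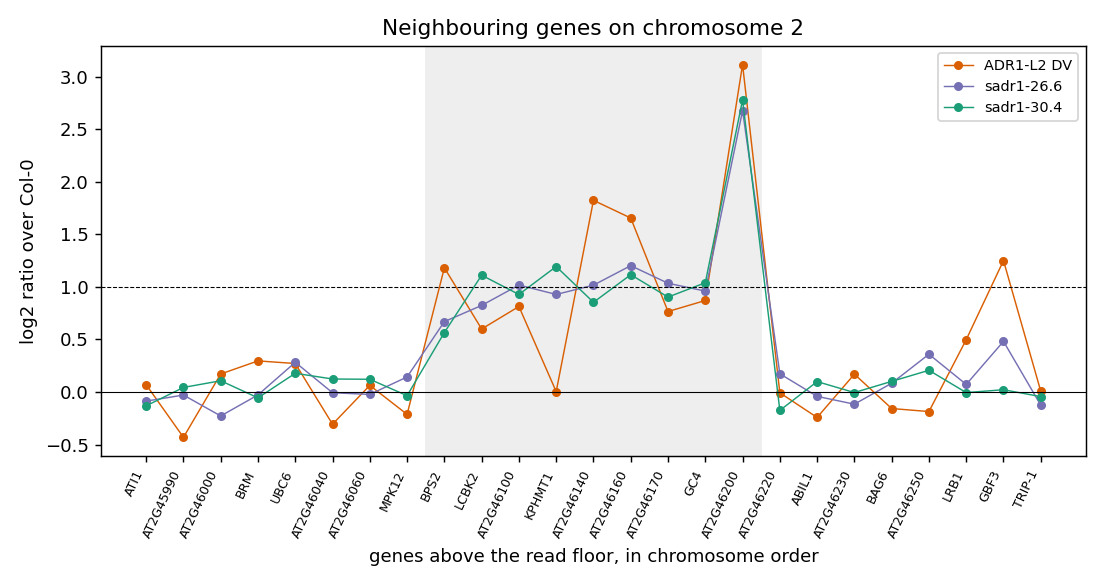
Log2 ratio over Col-0 in the *ADR1-L2 DV* parent, sadr1-26.6 and sadr1-30.4 for 9 neighbouring chromosome 2 genes (shaded) and the 16 genes that flank them, in chromosome order. In sadr1-30.4 the shaded genes run from 0.57 to 2.78 and the flanking genes from -0.17 to 0.21.

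Some large ratios belong to near-copies and are uncertain. *AT1G24800*, an F-box gene, had 0 reads in Col-0 and 169 in sadr1-30.4, at least 56.0-fold higher against a floor of 3 reads in Col-0, and *ADR1-L2 DV* and sadr1-26.6 had 171 and 153. It shares up to 89.4% of its 50-base words with a copy nearby, and the family of 5 copies together had 1928 reads in Col-0 and 1677 in sadr1-30.4 (log2 ratio -0.21). *AT5G50520*, of the major facilitator superfamily, had 111 reads in Col-0 and 0 in the other genotypes, at least 37.2-fold lower in sadr1-30.4. All of its words (100%) occur in *AT5G50630*, and the pair had 687 and 633 reads (-0.13). *AT1G07920*, an elongation factor gene, had 2450 reads in Col-0 and 11033 in sadr1-30.4 (log2 ratio 2.16), and shares 50.4% of its words with *AT1G07940*. The 4 related genes together had 37881 and 49238 reads (0.37), but here the copies did not offset the rise. *AT1G07940* had 8641 and 7384 reads, a smaller change, and *AT1G07930* rose from 5014 to 7350. *AT5G60390*, with 21776 and 23471 reads, holds much of the sum and shares only 4.48% of the words. How far shared reads enter this ratio was not tested.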

How the data were processed

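Leaf RNA was extracted with a Qiagen kit, and mRNA libraries were made with a Kapa kit. The authors deposited 1 table with 28496 genes, of which 28009 matched RefSeq TAIR10.1. The submitters' processing notes name TAIR10 as the build. Aligner, counter and strand setting: not given in the sources used here. Of each genotype the table holds 1 column headed RPKM. These deposited columns were treated as read counts pooled over 3 samples, because they hold whole numbers, differ in total and rise with gene length (Spearman's rho 0.53 in Col-0). Whether they are sums or rounded means is not stated, and for means the intervals are too wide. The other 6 columns hold the authors' fold changes and FDR values, and were not used.

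Counts were scaled by the median of ratios over genes with reads in all 4 genotypes. The size factors were 0.959 for Col-0, 1.17 for *ADR1-L2 DV*, 0.923 for sadr1-26.6 and 0.964 for sadr1-30.4. Log2 ratios used a pseudocount of 1. Genes with at least 50 reads in either genotype were kept. With 1 value per genotype no test was run, and neither were SDs or p-values computed. The scaling and the intervals were tested on simulated data.

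Named genes were the *RNL*, *EDS1* node, *SADR1* and *PR* genes, the 15 largest increases and decreases with at least 100 reads, up to 4 genes past 2-fold per direction and list, genes at 0 in 1 genotype with at least 50 reads in the other, and runs of at least 3 neighbours. Other genes were named after their values were seen. The comparison, members and lists were chosen with earlier results of these data known. List names with no unique match were left out. Analyses used Python 3.11.15, numpy 2.4.6, pandas 2.3.3, scipy 1.17.1 and matplotlib 3.10.9.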

Additional observations from a re-analysis of the deposited data

How the results depend on the processing

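Another scaling (total reads, the pair alone or the upper quartile), a pseudocount of 0.5 or 5, or leaving out near-copies and the chromosome 2 block (chosen after seeing the data) kept both counts within 1.5 times. The read floor moved them: without it 1094 genes were higher and 1264 lower, at 20 reads 179 and 300, and at 200 reads 29 and 86. With the counting interval wholly past 2-fold, 29 genes were higher and 94 lower. A 1.5-fold threshold gave 282 and 584, and a 4-fold one 11 and 32. Higher genes made up 31.6% of calls as reported, 46.4% without a floor and 25.2% at 200 reads. The table holds nuclear genes only, so restricting it to them changed nothing. No named gene past 2-fold changed sign, but 4 of the 70 fell under 2-fold in at least 1 alternative: *MLO12* and *JAL23* with total reads, *HEL* and *EXPA16* with the upper quartile, and all 4 with a pseudocount of 5 (0.944, 0.994, -0.997 and -0.967). List counts moved with them in salicylic acid output (3 to 2 higher), jasmonate output (3 to 2 higher, 1 to 0 lower), expansins (1 to 0 lower) and ER body genes (7 to 5 higher), while total reads added 1 lower gene each to the abscisic acid and senescence lists. At a pseudocount of 5, the ratios of 2 of the 81 named genes left their counting interval. No paired analysis was possible because the columns hold 1 pooled value per genotype, and for the same reason no replicate could be left out. Depth limits weakly read genes most: the SD of the log2 ratio over genes was 0.50 at 50 to 100 reads and 0.26 at 1000 to 5000.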
